A study of Drosophila virilis and Drosophila yakuba with 2 samples.

Results

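The maltase genes are a family of 10 named genes, Mal-A1 to Mal-A8 and Mal-B1 and Mal-B2, and all 10 were listed in both deposited tables. They were chosen by symbol alone, out of 14491 gene models of Drosophila virilis and 16077 gene models of Drosophila yakuba. Total RNA was sequenced from whole heads of wild type, mated females aged 2 to 5 days, with 1 library from a single stock of D. virilis and 1 library from a single stock of D. yakuba. D. yakuba is a close relative of D. melanogaster, and D. virilis belongs to another subgenus. By their labels both groups share sex, mating status, age range and tissue. With 1 library per species there was no replicate error and no test. Species, stock, tissue make-up of the heads, gene annotation and library preparation cannot be told apart.

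Maltases are alpha-glucosidases, enzymes that release glucose from maltose, sucrose and other short sugars. In insects they act mainly at the surface of the midgut, after amylase has cut starch into short chains. In D. melanogaster the genes lie in a pair of clusters that arose by tandem duplication, and gut carbohydrases such as amylase and maltase are lowered on sugar-rich food. A head holds brain, eyes, muscle, fat body and mouthparts, and the midgut is not part of it. Whether these libraries also held some RNA from the gut was not tested. The symbols carried no separate roles for the single members, so all are described here as alpha-glucosidase genes.

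Levels are in FPKM, the number of sequenced fragments per kilobase of a gene model after scaling for library size, which allows levels of different genes within a library to be compared. The tables held no fragment counts. The totals behind the values were estimated from the steps between low values at 70750000 fragments in virilis and 63250000 in yakuba. At these totals 3 fragments over 1 kb, the limit that a count of 0 allows, came to 0.0424 FPKM for virilis and 0.0474 FPKM for yakuba. Intervals are 95% exact intervals from Poisson counts for 1 kb of effective length, unless another length is named. This length is shorter than the spans of all maltase models. The intervals cover counting error only. Photoreceptor genes, as markers of the eye, were expressed in both libraries. All 5 found in virilis lay between 62.9 and 8636 FPKM, and all 4 found in yakuba between 61.1 and 2177 FPKM. These values show that eye tissue was present and cannot show that RNA of other body parts was absent.

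The maltase family was made up of a few expressed genes and several nearly silent ones, and by rank the same 5 genes were the higher ones in both species. At 1 FPKM or more were 5 of 10 members in virilis, against 71.1% of all models and 75.3% of models with a symbol, and 4 of 10 members in yakuba, against 65.7% of all models and 86.1% of models with a symbol. The 10 members had medians of 0.696 FPKM in the virilis head and 0.637 FPKM in the yakuba head, while the virilis table as a whole had a median of 6.26 FPKM and the yakuba table one of 4.20 FPKM. The 5 highest members of each library were Mal-A1, Mal-A5, Mal-A6, Mal-B1 and Mal-B2, of which Mal-A6 was below 1 FPKM in yakuba. Counting intervals of Mal-A6 in both libraries and of Mal-A1 in yakuba held 1 FPKM. The counts of 5 and 4 members are therefore not told apart by counting. In a whole head, fewer cells of an expressing type and less RNA per cell cannot be told apart.

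**Figure D1:**
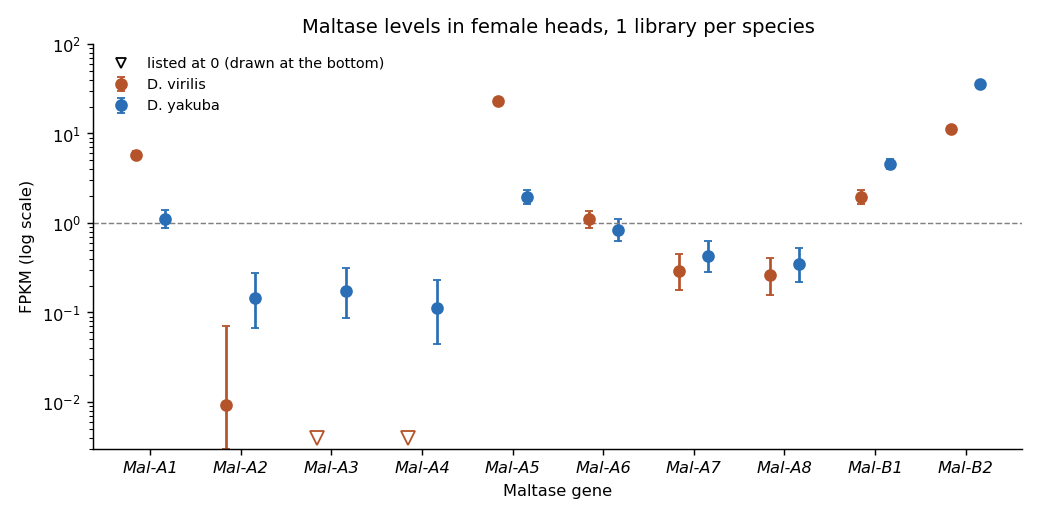
FPKM of the 10 maltase genes on a log axis, with D. virilis to the left of D. yakuba for each gene, 95% counting intervals for 1 kb of effective length as bars, and a dashed line at 1 FPKM. Mal-A5 and Mal-A1 are higher in virilis, Mal-B1 and Mal-B2 are higher in yakuba, and open triangles mark Mal-A3 and Mal-A4, which are listed at 0 in virilis; the bar of Mal-A2 in virilis runs to the bottom of the axis.

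Mal-A5 was the most highly expressed maltase gene of the virilis head and a low one in yakuba. It stood at 23.3 FPKM in virilis (interval 22.2 to 24.4), above 79.6% of all virilis models and 70.3% of virilis models with a symbol. In yakuba it stood at 1.96 FPKM (interval 1.63 to 2.34), above 40.8% of all models. Its level in virilis was 11.9-fold that in yakuba, with a counting interval of 9.89 to 14.4. The models had spans of 2812 bp in virilis and 2136 bp in yakuba (virilis gene FBgn0208834, scaffold_12875, 9420765 to 9423576; yakuba gene FBgn0236561, 2L, 17005425 to 17007560).

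Mal-B2 showed the opposite difference and was the most highly expressed maltase gene of the yakuba head. It stood at 11.3 FPKM in virilis (interval 10.5 to 12.1) and at 35.3 FPKM in yakuba (interval 33.8 to 36.8). The yakuba level was above 89.4% of all yakuba models but above only 57.3% of yakuba models with a symbol, while the virilis level was above 63.3% and 57.7% of the corresponding virilis models. Mal-B2 was second in the virilis family, and its level in virilis was 0.32 times that in yakuba, with a counting interval of 0.295 to 0.347. Its models had nearly equal spans, 2061 bp in virilis and 2020 bp in yakuba (virilis gene FBgn0022838, scaffold_12963, 13340753 to 13342813; yakuba gene FBgn0235956, 2L, 8271774 to 8273793).

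Mal-A1 followed Mal-A5 in direction, and Mal-B1 followed its neighbour Mal-B2. Mal-A1 had 5.78 FPKM in virilis (interval 5.24 to 6.37) and 1.12 FPKM in yakuba (interval 0.873 to 1.41), a ratio of 5.17 with a counting interval of 4.01 to 6.76. Mal-B1 had 1.96 FPKM in virilis (interval 1.65 to 2.31) and 4.57 FPKM in yakuba (interval 4.06 to 5.13), a ratio of 0.429 with a counting interval of 0.347 to 0.527. The Mal-B1 models differed in span, with 6838 bp in virilis and 1891 bp in yakuba. Its ratio therefore also depends on how much of the virilis span was counted as exon, which was not given in the sources used here. It was the only member whose spans differed by more than 1.5 times.

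Mal-A6 was the lowest of the 5 expressed members and had similar values in both heads. It had 1.10 FPKM in virilis (interval 0.871 to 1.38) and 0.845 FPKM in yakuba (interval 0.634 to 1.10). Only the yakuba value fell below 1 FPKM, but both intervals held 1 FPKM. The ratio was 1.30, and its counting interval of 0.909 to 1.88 held both directions.

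The other 5 members, Mal-A2, Mal-A3, Mal-A4, Mal-A7 and Mal-A8, were all below 0.5 FPKM in both libraries. For Mal-A7 the virilis head gave 0.289 FPKM and the yakuba head 0.429 FPKM, and for Mal-A8 the virilis head gave 0.262 FPKM and the yakuba head 0.349 FPKM. The counting intervals of their ratios, 0.361 to 1.24 for Mal-A7 and 0.381 to 1.46 for Mal-A8, held both directions. These genes were above the level of 3 fragments in both species, so they were low rather than undetected.

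Mal-A2, Mal-A3 and Mal-A4 were the lowest members of the family in both species, and in virilis they were at or next to 0. Mal-A3 and Mal-A4 were listed at 0 in virilis, as were 6.16% of all virilis models, and no ratio is given for them. In yakuba, where 10.6% of models and no maltase gene were listed at 0, Mal-A3 had 0.174 FPKM (interval 0.0867 to 0.311) and Mal-A4 had 0.111 FPKM (interval 0.0449 to 0.229). A value of 0 in such a table can also be a failed estimate.

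Mal-A2 in virilis, at 0.00915 FPKM, corresponded to 1 fragment. At the estimated total, 1 fragment gives this value for a counted length of 1704 bp, which lies within the model's span of 1814 bp, whereas 2 fragments would need a length of 3250 bp. In yakuba Mal-A2 had 0.145 FPKM, or about 14.2 fragments over the same effective length. The yakuba value was 15.9 times the virilis value, with a counting interval of 2.42 to 670.2 at that effective length of 1545 bp and of 1.63 to 3934 at 1 kb. On the centred scale with a pseudocount of 1 FPKM its log2 ratio was 0.02, since both values are far below the pseudocount.

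The order of the levels was alike in both species apart from the top. In virilis it ran Mal-A5, Mal-B2, Mal-A1, Mal-B1, Mal-A6, Mal-A7, Mal-A8 and Mal-A2, with Mal-A3 and Mal-A4 last at 0. In yakuba it ran Mal-B2, Mal-B1, Mal-A5, Mal-A1, Mal-A6, Mal-A7, Mal-A8, Mal-A3, Mal-A2 and Mal-A4. The neighbours in this order whose counting intervals overlapped were Mal-A7 and Mal-A8, and the last 3, in virilis. In yakuba they were Mal-A1 and Mal-A6, and each neighbouring pair from Mal-A7 down to Mal-A4. Across the 10 genes Spearman's rho between the species was 0.92, against 0.91 across the 67 other genes with the same symbol in both tables. Genes within a library share its total and are not independent replicates.

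The summed level of the family was nearly the same in both heads, while its makeup differed. The 10 members added up to 44.0 FPKM in the virilis head and 45.0 FPKM in the yakuba head as deposited, a ratio of 0.978 with a counting interval of 0.929 to 1.03. The Mal-A genes contributed 30.7 FPKM (69.9%) in virilis and 5.13 FPKM (11.4%) in yakuba. The Mal-B genes contributed 13.2 FPKM (30.1%) in virilis and 39.9 FPKM (88.6%) in yakuba. The Mal-A sum in virilis was thus 5.99 times that in yakuba, with a counting interval of 5.33 to 6.75, and the Mal-B sum 0.332 times, with a counting interval of 0.308 to 0.358.

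Mal-A5 and Mal-B2 together held 78.6% of the family sum in virilis and 82.8% in yakuba. Mal-A5 alone was 53.0% of the sum in virilis and 4.36% in yakuba, and Mal-B2 alone was 25.7% in virilis and 78.4% in yakuba. Without Mal-A5, the remaining Mal-A genes still summed to 7.45 FPKM in the virilis head and 3.17 FPKM in the yakuba head. Mal-A1 gave 5.78 FPKM of that remainder in virilis and 1.12 FPKM of it in yakuba. Near equality of the family sums depended on scaling: relative to the median ratio of gene pairs the virilis sum was 1.12 times the yakuba sum, and after upper quartile scaling it was 0.817 times. The Mal-A and Mal-B sums kept their directions under every scaling tried.

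**Figure D2:**
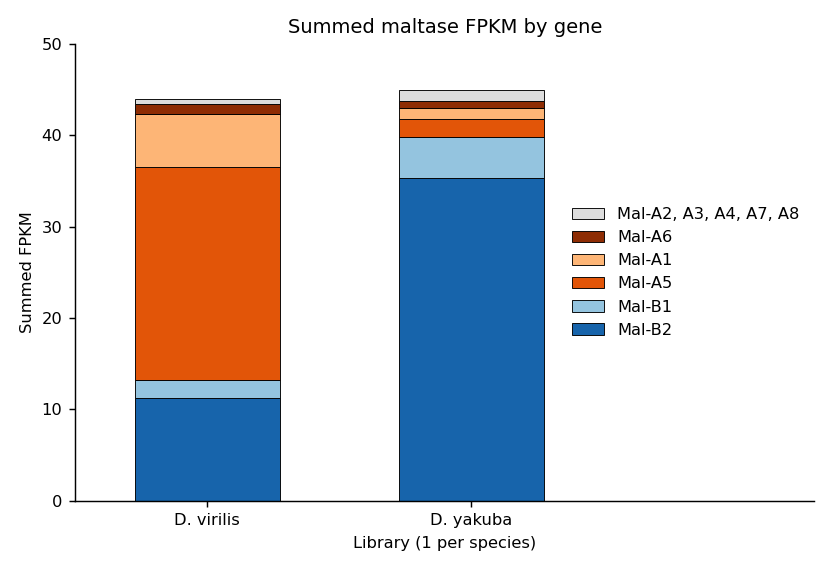
Summed FPKM of the maltase family in each library, as stacked bars from 0, with 1 segment for each of the 5 expressed members and 1 grey segment for the other 5. The bars reach 44.0 FPKM in D. virilis and 45.0 FPKM in D. yakuba, with Mal-A5 as the largest segment in virilis and Mal-B2 as the largest in yakuba.

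Among all genes that could be paired by symbol, Mal-A5 was past the size rule and the other maltase genes were not. The rule asked for a 4-fold difference and 10 FPKM or more in the higher library, on log2((virilis + 1)/(yakuba + 1)) relative to the median ratio of pairs, which was -0.20. Of the 77 pairs, 5.19% passed in either direction and 1.3% passed towards virilis, and that was Mal-A5 alone, with a log2 ratio of 3.23, the third largest in size. Towards yakuba 3.9% of pairs passed, and 0 of the 10 maltase pairs did. Of the maltase pairs, 2 reached 10 FPKM in the higher library, and the second, Mal-B2, had a log2 ratio of -1.36. Mal-A1 had a log2 ratio of 1.88 and Mal-B1 of -0.71, both below 10 FPKM in each library.

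The counting interval of the plain ratio lay above 1 for 2 of the 8 maltase pairs listed above 0 in both libraries, Mal-A1 and Mal-A5, against 34.8% of all such pairs. It lay below 1 for 3 of the 8, Mal-A2, Mal-B1 and Mal-B2, against 50.7% of all such pairs. Most pairs of any kind were thus past 1 on these intervals in either direction, and the maltase counts did not stand apart. The intervals take 1 kb of effective length for every pair. They are too narrow for shorter models, such as MtnB with 197 bp in virilis and 193 bp in yakuba. The plain ratio is not centred, so the median log2 ratio of pairs, -0.20, also counts towards these shares. By size, all 10 maltase pairs had a median absolute log2 ratio of 0.24, against 0.46 for the 67 other pairs, on the centred scale where values below the pseudocount give ratios near 0. The 4 maltase pairs that reached 1 FPKM in each species had a median absolute log2 ratio of 1.62, as a description of these libraries. The 48 other such pairs had one of 0.48, and their log2 ratios had a standard deviation of 0.94. This cut kept Mal-A1, at 1.12 FPKM in yakuba, and left out Mal-A6, at 0.845 FPKM there with a log2 ratio of 0.39. Counting does not place either on 1 side of 1 FPKM in yakuba.

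**Figure D3:**
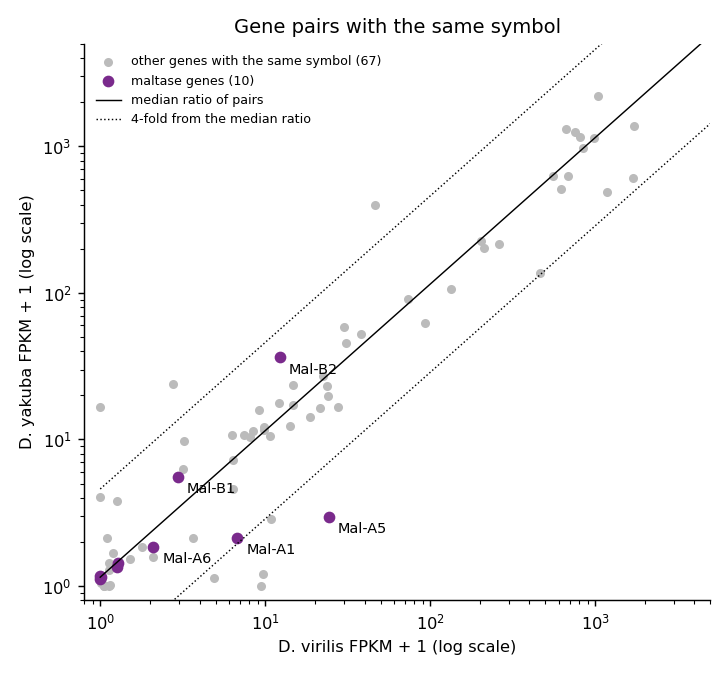
FPKM + 1 of the 77 genes with the same symbol in D. virilis (x axis) and D. yakuba (y axis), both on log axes, with the median ratio as a solid line and 4-fold from it as dotted lines. Mal-A5 at 23.3 FPKM in virilis and 1.96 FPKM in yakuba lies beyond the lower dotted line, and Mal-B2 lies above the solid line but inside the upper dotted line.

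Genes near to Mal-A5 in level could be looked for only among the 67 other genes with the same symbol in both species. Of these, the 2 nearest to Mal-A5 in both libraries were not close to it. They were SuUR, a gene of heterochromatin replication, with 9.77 FPKM in the virilis head and 1.84 FPKM in the yakuba head, and the cuticle pigment gene y, at 8.71 FPKM in virilis and 0.207 FPKM in yakuba. Their distances on the log2(FPKM + 1) scale were 1.18 and 1.85. Nearest to Mal-B2 among the same 67 genes were sog, which encodes an antagonist of a secreted growth factor, and Updo. They had 13.7 and 21.3 FPKM in virilis and 22.5 and 26.0 FPKM in yakuba, at distances of 0.68 and 0.96.

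The 8 Mal-A genes formed a single cluster in the same order, Mal-A1 to Mal-A8, in both species. The cluster spanned 39.3 kb in virilis (scaffold_12875, 9405909 to 9445251) and 23.0 kb in yakuba (2L, 16993388 to 17016390), in the builds of the deposited tables, which were not given in the sources used here. The yakuba cluster held no other gene model. The virilis cluster held 1 other model, GJ20631, of 563 bp between Mal-A1 and Mal-A2, and it was listed at 0.

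Most of the extra length in virilis lay between Mal-A6 and Mal-A7, where 14628 bp held no gene model, against 2326 bp in yakuba. The gap between Mal-A1 and Mal-A2 was 4552 bp in virilis and 1943 bp in yakuba. The gap between Mal-A5 and Mal-A6 was the shortest in both, 144 bp in virilis and 145 bp in yakuba. Model spans of the Mal-A genes had a median of 1954 bp in virilis and 2003 bp in yakuba.

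Along the cluster, the higher and lower genes had the same places in both species. Mal-A1 at the end of the cluster was expressed, the block Mal-A2 to Mal-A4 was at or near 0, Mal-A5 was the peak of the cluster, Mal-A6 was lower, and Mal-A7 and Mal-A8 were low. Mal-A5 had 23.3 FPKM in virilis, between Mal-A4 at 0 and Mal-A6 at 1.10 FPKM. Its level was 21.1 times that of Mal-A6 in virilis (interval 16.8 to 26.9) and 2.32 times that of Mal-A6 in yakuba (interval 1.67 to 3.26). In yakuba Mal-A5 also stood at 17.6 times Mal-A4 (interval 8.32 to 44.6). The steep change over the short gap of 144 bp was thus found in virilis, while in yakuba the same neighbours were closer in level.

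The nearest model on each side of the cluster was expressed in both species. Beside Mal-A1 lay GJ21711 at 11.6 FPKM in virilis and GE19200 at 4.46 FPKM in yakuba. Beside Mal-A8 lay long models, GJ20628 of 45930 bp at 4.48 FPKM in virilis and GE22975 of 17777 bp at 4.36 FPKM in yakuba. All of these carried systematic identifiers only. Of the 5 models per side, 9 of 10 were at 1 FPKM or more in virilis and 7 of 10 in yakuba. The shares of all models were 71.1% in virilis and 65.7% in yakuba. Of the 8 members, 3 reached 1 FPKM in virilis and 2 in yakuba. On the Mal-A1 side, GJ20633 had 0.0405 FPKM in virilis, and GE19197, GE19198 and GE23014 were listed at 0 in yakuba. The flanking models had medians of 6.67 FPKM in virilis and 3.74 FPKM in yakuba, against member medians of 0.275 FPKM in virilis and 0.389 FPKM in yakuba.

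**Figure D4:**
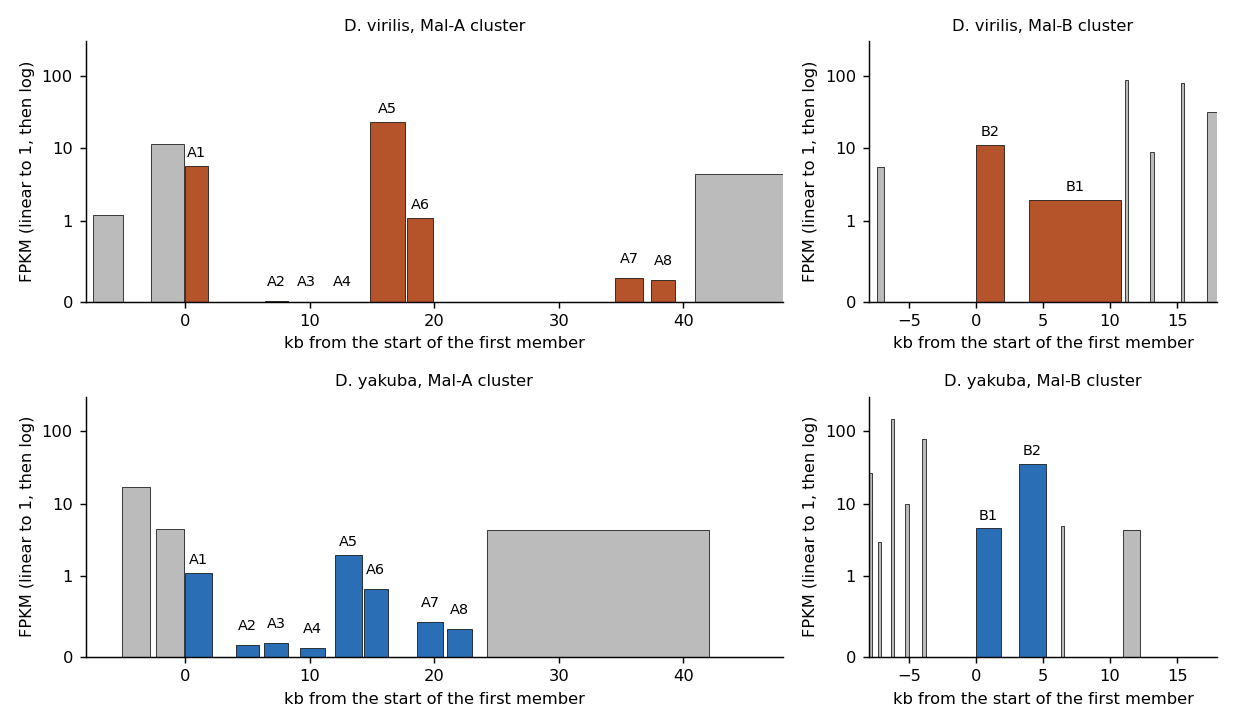
FPKM of gene models along the Mal-A cluster (left) and the Mal-B cluster (right), with D. virilis above D. yakuba. The x axis is kb from the start of the first member, the y axis is FPKM on a scale linear to 1 and logarithmic above, coloured bars are maltase genes and grey bars are other models, clipped at the panel edge. Mal-A5 is the tallest Mal-A bar in both species, and Mal-A2, Mal-A3 and Mal-A4 are at or near 0.

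Mal-B1 and Mal-B2 were direct neighbours in both species. In the deposited coordinates the higher gene Mal-B2 lay on opposite sides of Mal-B1, but a later D. virilis assembly, described below, has the reverse virilis order. In virilis Mal-B2 came first and was followed by Mal-B1 after 1902 bp (scaffold_12963, 13340753 to 13351553). In yakuba Mal-B1 came first and was followed by Mal-B2 after 1309 bp (2L, 8268574 to 8273793). The Mal-B cluster lay on another scaffold than the Mal-A cluster in virilis, and on the same sequence, 2L, in yakuba. Mal-B2 had 5.76 times the level of Mal-B1 in virilis (interval 4.80 to 6.95) and 7.72 times in yakuba (interval 6.83 to 8.75). The virilis ratio also depends on how much of the 6838 bp span of Mal-B1 was counted as exon, which its interval does not cover. In the deposited values Mal-B2 was thus the higher gene of the pair in both heads.

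On the Mal-B1 side of the pair, both species had short models with high values. The nearest was GJ22500 of 222 bp at 87.7 FPKM in virilis and GE18545 of 234 bp at 77.7 FPKM in yakuba. FPKM of models this close to the estimated fragment lengths of 160 bp in virilis and 180 bp in yakuba is uncertain. On the Mal-B2 side lay GJ17472 at 5.50 FPKM in virilis and GE18548 at 4.90 FPKM in yakuba.

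In the RefSeq annotation of a later D. virilis assembly, Dvir_AGI_RSII-ME, 9 of the 10 maltase symbols were found. Mal-B1 and Mal-B2 were again direct neighbours, and the Mal-A genes stood in the same relative order. Both clusters ran in the reverse direction to the deposited virilis coordinates, from Mal-B1 to Mal-B2 and from Mal-A8 to Mal-A1. Mal-A1 and Mal-A2 were again separated by 1 gene, and the place between Mal-A6 and Mal-A8, where the deposited table has Mal-A7, was taken by 1 gene without a maltase symbol. No deposited virilis identifier occurred in that table, so the genes were matched by symbol only.

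Of the other genes of sugar digestion and use, few carried a symbol: 2 of 33 were found in virilis and 9 of 33 in yakuba. The amylase-related gene Amyrel was low in both, with virilis at 0.193 FPKM and yakuba at 0.667 FPKM. The fucosidase gene Fuca reached 8.20 FPKM in the virilis head, against 14.9 FPKM in the yakuba head. In yakuba, Amy-d had 13.7 FPKM and Amy-p 10.4 FPKM; these encode amylase and are close duplicates, between which reads may have been shared. The virilis amylase gene, spelled Amy and looked up after the values were seen, had 10.6 FPKM. Amylase in both heads was thus of the same order as Mal-B2 in virilis and below Mal-B2 in yakuba.

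Of the genes of sugar use inside cells, which were named only in the yakuba table, 4 of 5 were higher there than any maltase gene. The hexokinase genes Hex-A and Hex-C had 77.8 and 74.2 FPKM, the phosphoglucose isomerase gene Pgi 224 FPKM and the phosphoglucomutase gene Pgm 169 FPKM. Hex-t1, a hexokinase gene of the testis in D. melanogaster, was the exception at 0.492 FPKM.

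Markers of organs that express digestive enzymes were few in these tables. Of 29 midgut markers, 2 were found in virilis, the transcription factor genes pros at 26.9 FPKM and lab at 1.58 FPKM, both of which also act in the nervous system. In yakuba 4 were found: the trypsin genes alphaTry at 46.3 FPKM and epsilonTry at 0.159 FPKM, the lysozyme gene LysS at 0.765 FPKM, and Peb at 0.252 FPKM, whose symbol belongs to a gene of the male ejaculatory bulb in D. melanogaster. Further protease genes, none of them on the midgut list, were looked up after the values were seen. In virilis the trypsin genes Try1 and Try2 had 0.0700 and 0.552 FPKM, and in yakuba kappaTry, Ser4 and Ser7 had 0.154, 5.69 and 52.7 FPKM. Of 11 salivary gland markers, virilis had fkh at 2.52 FPKM, and yakuba had the larval glue genes Sgs3 and Sgs8 at 0.514 and 0.756 FPKM. The 3 fat body markers found in virilis lay between 37.1 and 215 FPKM and the 2 found in yakuba between 39.2 and 51.4 FPKM. None of these markers was at 0, and apart from the fat body gene SREBP, at 37.1 FPKM in virilis and 51.4 FPKM in yakuba, no marker of these 3 lists was found in both tables. The muscle markers named in both species, Mhc, Mlc1 and wupA, were all higher in virilis, at 2.41, 2.78 and 3.42 times their yakuba levels. The part of any of these markers or tissues in the maltase levels was not tested.

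Within each library's full range of values, 2 maltase genes lay above the median of all models in each species. The share of models below the highest member was 79.6% in virilis, for Mal-A5, and 89.4% in yakuba, for Mal-B2. The second member was Mal-B2 in virilis, above 63.3% of models, and Mal-B1 in yakuba, above 51.3%. The third member in rank, Mal-A1 in virilis and Mal-A5 in yakuba, was above 48.3% of models in virilis and 40.8% in yakuba. The family sum was 0.00911% of the summed FPKM of all models in virilis and 0.0107% in yakuba.

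**Figure D5:**
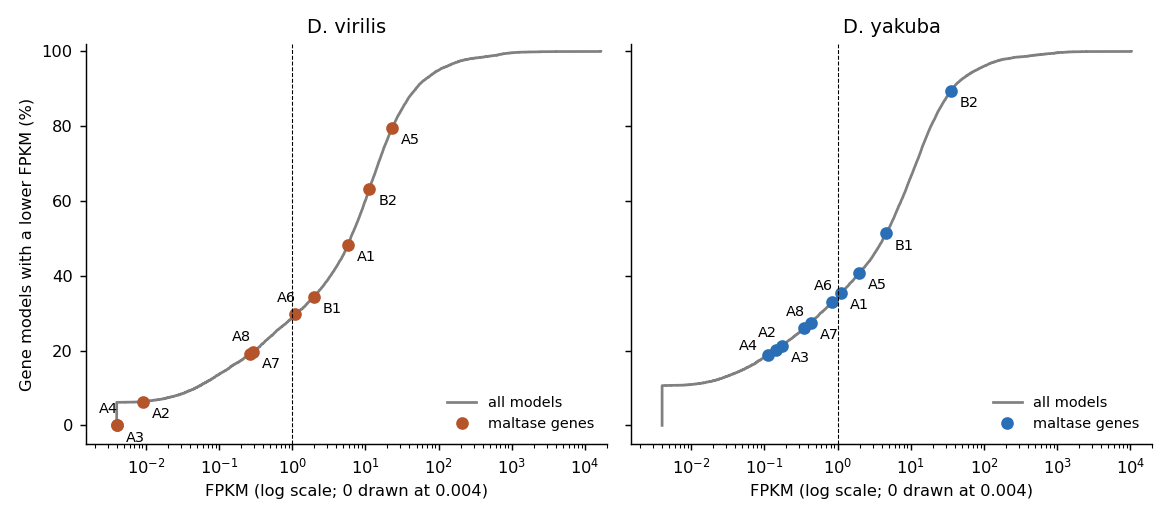
Share of gene models with a lower FPKM (y axis, %) against FPKM on a log axis, for all models as a grey line and the maltase genes as labelled points, with D. virilis left and D. yakuba right and values of 0 drawn at 0.004. Mal-A5 in virilis, at 79.6%, and Mal-B2 in yakuba, at 89.4%, are the highest maltase points, and a dashed line marks 1 FPKM.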

How the data were processed

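Stranded total RNA libraries were made from 1 µg of head RNA per species, per the labels' protocols. The authors deposited 1 FPKM value for each gene model with its locus, per the file headers. The submitters' processing notes name TopHat and Cufflinks; the sources used here do not give versions, builds, annotation or use of strand. Reads shared between maltase paralogs or overlapping models may therefore have been split.

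The members, lists and rules were chosen with earlier results of these data known. All models were kept. Locus starts counted from 0 and are given from 1. Library totals were estimated, after the values were seen, from low values (under 0.12 FPKM, spans of 900 to 4000 bp that were multiples of 3). The total and fragment length were those that brought the largest share of values at up to 6.5 fragments within 0.04 of whole fragments. At the totals used, this share was 58.9% in virilis and 49.2% in yakuba. Totals leaving mainly multiples of 2 or 3 were divided by them. Near-best fits were looked for only close to the chosen total. They ran from 70000000 to 72750000 fragments in virilis and from 61250000 to 64750000 in yakuba. These ranges do not cover more distant totals. Genes were paired by identical symbol, and ratios used a pseudocount of 1 FPKM, centred on the median of pairs that reached 1 FPKM in each species. All members were named, with their neighbouring models, every listed sugar, midgut and salivary gland gene found, and the 2 nearest gene pairs. Alternative pseudocounts, centring, scaling and thresholds were tried. Scripts used Python 3.11.15, pandas 2.3.3 and scipy 1.17.1 and were tested on simulated data.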

Additional observations from a re-analysis of the deposited data

How the results depend on the processing

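No paired analysis was possible because each species has 1 library, and for the same reason no library could be left out. Mal-A5 was the only maltase pair past 4-fold with 10 FPKM or more in the higher library, higher in virilis, under pseudocounts of 0.1 and 5 FPKM, all centrings and upper quartile scaling. With a pseudocount of 1 FPKM and the main centring it was also the only one with no minimum or one of 1 FPKM, and 0 maltase pairs passed at a minimum of 30 FPKM, since Mal-A5 lies below that level. Mal-A1, below 10 FPKM in both libraries, reached log2 ratios past 4-fold with a pseudocount of 0.1 FPKM (2.48) and when centred on ribosomal protein pairs (2.04). No maltase pair passed towards yakuba in any setting. The log2 ratio of Mal-A5 ran from 2.20 to 3.72, that of Mal-A1 from 1.00 to 2.48, Mal-B2 from -1.81 to -1.13, Mal-B1 from -1.10 to -0.28 and Mal-A6 from 0.06 to 0.56. The centred ratios of the other 5 members changed sign between settings, and those of Mal-A2 ran from -0.96 to 0.18. The direction given for Mal-A2 rests on its plain FPKM ratio alone. At 5 FPKM or more there were 3 members in virilis and 1 in yakuba, and at 0.5 FPKM or more 5 in each. Shares of all models at these levels were not worked out, so these counts have nothing to be set beside. Over members at 1 FPKM or more the virilis median was 5.78 FPKM and the yakuba median 3.27 FPKM.

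Scalings of the sums were chosen after seeing the data. Divided by the median ratio of pairs, of ribosomal protein pairs, or by upper quartiles, the virilis sum over the yakuba sum was 1.12, 1.26 and 0.817 for the family. It was 6.87, 7.71 and 5 for Mal-A, and 0.381, 0.428 and 0.278 for Mal-B. Depth limits Mal-A2, Mal-A3 and Mal-A4 in virilis, which rest on 1 fragment or none.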
